A study of Mus musculus with 42 samples.

Results

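The 13 protein-coding genes of the mouse mitochondrial genome are described here across cerebellum libraries from an intermittent fasting study. They are every gene placed on the mitochondrial chromosome in both deposited count tables, 13 of 35275 genes, and all 13 lie at the same positions in RefSeq's mitochondrial record of GRCm38.p6. Mitochondrial rRNA and tRNA genes were not analysed here. Male C57BL/6 mice entered the study at 3 months of age and were fed ad libitum (AL), fasted for 16 h each day (IF16), or fasted for 24 h on every other day (EOD), in each case for 3 months, so that tissue was taken at 6 months. Mice of the groups AL-R, IF16-R and EOD-R (a dot in the labels is a hyphen here) went through the same regimens, were then refed freely for 2 months, and tissue was taken at 8 months. No genotype other than the shared C57BL/6 background (C57/BL6NTac in the design text) was named. Each of the 6 groups had 5 RNA-seq libraries numbered 1 to 5, whole cerebellum being flash frozen before RNA extraction. Whether each number is a separate mouse is not given in the sources used here, so p-values measure the spread between these samples.

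The mitochondrial genome is a small circular DNA that is transcribed along nearly its whole length on both strands into long precursors, from which the separate RNAs are cut, so the final level of each mRNA depends largely on processing and turnover. Its mRNAs encode core subunits of the respiratory chain complexes I, III and IV and of the ATP synthase, complex V, while the remaining subunits of these complexes are encoded in the nucleus and imported. Cerebellar neurons depend heavily on this oxidative machinery. Stretches of mitochondrial DNA have also been inserted into nuclear chromosomes during evolution, and a read that matches both places cannot be assigned to one of them from its sequence alone.

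Such a stretch bears on 8 of the 13 mRNAs. Of the pseudogenes in the tables, 7 lie in a row on the minus strand of chromosome 1, between 24611535 and 24616197 (mm10, the build in the submitters' processing notes), and mirror by position 7 of the 8 genes that reach into positions 6381 to 11043 of the mitochondrial genome, a span of 4663 bases, with mt-Co1 and mt-Nd4 mirrored in part. For mt-Atp8, which also lies in that span, no pseudogene stands among the 7, so its counts have no copy set beside them. By position, 6 mRNAs lie wholly inside this span: mt-Co2 (7013 to 7696), mt-Atp8 (7766 to 7969), mt-Atp6 (7927 to 8607), mt-Co3 (8607 to 9390), mt-Nd3 (9459 to 9806) and mt-Nd4l (9877 to 10173). The complex IV gene mt-Co1 (5328 to 6872) has 31.8% of its length in the span and the complex I gene mt-Nd4 (10167 to 11544) has 63.6%. The other 5, mt-Nd1 (2751 to 3707), mt-Nd2 (3914 to 4951), mt-Nd5 (11742 to 13565), mt-Nd6 (13552 to 14070) and mt-Cytb (14145 to 15288), lie outside it. Mitochondrial genes have no introns, so each position given is that of an exon. By position mt-Atp8 overlaps mt-Atp6, and mt-Nd4l overlaps mt-Nd4. An mRNA here therefore means the counts assigned to a gene, and not necessarily a separate molecule. All 13 genes are on the plus strand except mt-Nd6, which is on the minus strand. Positions alone were used for this match, and how reads that match 2 places were counted is not given in the sources used here.

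Library totals ranged from 26799825 to 36167435 counts, and counting error weighs most on mt-Atp8, which had 1 to 15 counts per library. The tissue label was checked on markers: all 11 granule cell markers and all 11 Purkinje cell markers were counted in all 30 libraries, with mean levels of 8.56 to 8.98 and 8.27 to 8.61 log2 CPM (counts scaled to a common library size), against -0.642 to 0.602 for 8 forebrain markers, of which 4 were at 0 in at least 1 library. Choroid plexus markers, from the tissue that lines the adjoining ventricle, ranged from 0.692 to 5.36 log2 CPM and differed widely within groups. Libraries also differed in how counts varied with gene length. Log2 CPM of each nuclear gene was taken relative to its mean over the libraries of its table. The slope of these values on log2 gene length is called the length gradient below. It ran from -0.158 to 0.139 in libraries from the end of the regimens. It exceeded 0.1 in size in AL replicates 4 and 5, IF16 replicate 1 and EOD replicate 4. After refeeding it ran from -0.0262 to 0.0415. The zero point is the average of each table, so single values are not comparable between the tables. IF16-R replicate 1 stood apart from the other 4 IF16-R libraries in several members, as given below.

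Levels were compared between genes only per length, in FPKM (fragments by kilobase of gene length and library size), and were lowest for the mRNAs inside the copied span. In AL libraries mt-Co1, the catalytic core of complex IV, had the highest level at 8536 ± 639 FPKM (SD, n = 5). Next came mt-Cytb, the one mitochondrial subunit of complex III, at 5530 ± 354 FPKM, then mt-Nd1 at 4843 ± 384, mt-Nd2 at 2957 ± 180 and mt-Nd4 at 2480 ± 310 FPKM, all core parts of complex I. The ranges of mt-Cytb and mt-Nd1 overlapped, as did those of mt-Nd2 and mt-Nd4. mt-Nd6, from the opposite strand, followed at 1550 ± 98.2 FPKM and mt-Nd5 at 1126 ± 319 FPKM, and their ranges overlapped too.

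The 6 mRNAs wholly inside the span came last in all 6 groups, with a step of 7.02 to 9.58 times between the lowest mean of the other 7 and the highest mean among them. In AL libraries, mt-Co2, which carries the copper site that accepts electrons from cytochrome c, had 160 ± 10.8 FPKM. mt-Co3, the other complex IV core subunit, had 109 ± 9.40 FPKM, and mt-Atp6, the proton channel subunit of complex V, had 96.5 ± 6.14 FPKM, with overlapping ranges. Below them stood mt-Nd3 at 23.7 ± 7.57 FPKM, mt-Nd4l at 8.01 ± 5.65 and mt-Atp8, the other complex V subunit, at 0.205 ± 0.0857 FPKM. The values of mt-Atp8 and mt-Nd4l were far below those of the genes they overlap, mt-Atp6 and mt-Nd4. They are values of assigned counts and were not read as levels of separate molecules. The chromosome 1 pseudogenes also held counts. In AL libraries their levels per length were 141 ± 7.48 FPKM for the mt-Co2 copy, 139 ± 9.05 for the mt-Atp6 copy, 103 ± 10.1 for the mt-Co3 copy and 122 ± 13 FPKM for the mt-Nd3 copy. The mt-Nd4l copy had 7.74 ± 4.68 FPKM. The copies of parts of mt-Co1 and mt-Nd4 had 178 ± 25.3 and 33.5 ± 6.14 FPKM, far below those mRNAs. Of the counts on each such pair, the copy held 45.9% to 48.1% for mt-Co2, 47.1% to 50.1% for mt-Co3, 44.4% to 54.9% for mt-Nd4l, 57.2% to 64.8% for mt-Atp6 and 77.4% to 87.2% for mt-Nd3 over the 30 libraries. For mt-Co1 and mt-Nd4 it held at most 0.841% and 1.33%. Since the division of reads between a copied mRNA and its copy is not described in the sources used here, these 6 mRNAs are reported apart from the others.

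**Figure D1:**
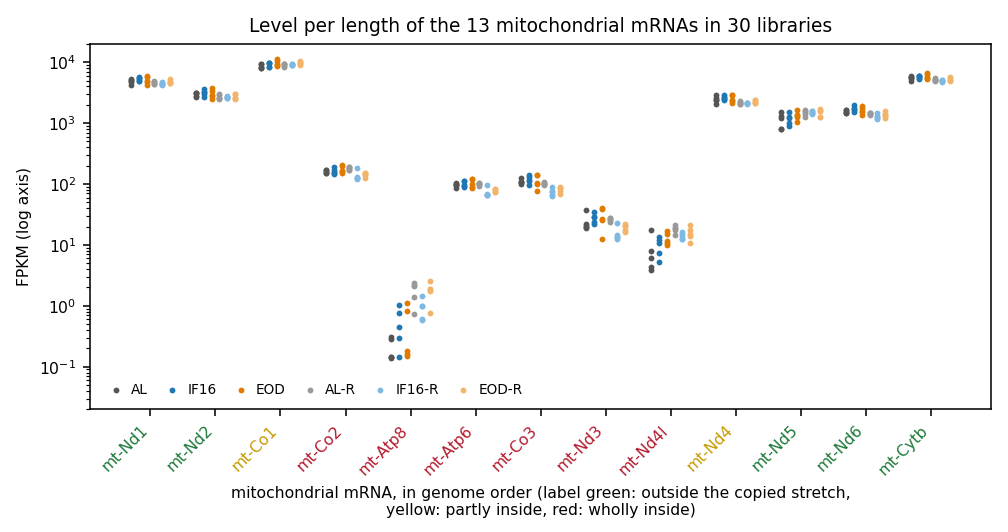
Level per length (FPKM, log axis) of each mitochondrial mRNA in genome order, 1 point per library, 5 per group, coloured by group. The 6 mRNAs wholly inside the copied span (red labels) form a low block between mt-Co1 and mt-Nd4, from 160 FPKM for mt-Co2 down to 0.205 FPKM for mt-Atp8 in the AL means, while the other 7 lie at 1126 FPKM or above.

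At the end of the regimens no mitochondrial mRNA was called different between fasted and AL cerebellum after adjustment over all genes, although every tested one had a higher fitted mean in both fasted groups. With edgeR's quasi-likelihood test and Benjamini-Hochberg adjustment over all genes, 0 of 12 tested members passed an adjusted p of 0.05 in IF16 against AL, where 0.0483% of all 16577 genes did, and 0 of 12 in EOD against AL, where 0.0664% did. At an unadjusted p under 0.05 there were 0 members in IF16 against AL, against 9.92% of all genes, and 1, mt-Co1, in EOD against AL, against 14.4%. DESeq2 called 0 in both. Both comparisons use the same AL libraries. The median log2 fold change of the 12 members was 0.09 in IF16 and 0.11 in EOD, against -0.01 and -0.02 for all genes tested, of which 48.7% and 46.7% had a positive value. The 12 members share libraries and are cut from shared precursors, so their common sign is not 12 independent results. Under at least 1 alternative of the closing section, mt-Co2 and mt-Nd5 changed sign in IF16 against AL. In EOD against AL mt-Nd2, mt-Co3, mt-Nd4 and mt-Nd5 did. mt-Atp8 was too low to test, with 1 to 8 counts in these libraries. In bulk tissue, fewer cells of a type and less RNA per cell cannot be told apart.

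Among complex I genes, mt-Nd6 encodes a membrane subunit and is the only mRNA of its strand. It had 835, 745, 846, 827 and 768 CPM in AL replicates 1 to 5 and 1037, 786, 894, 886 and 866 CPM in IF16 replicates 1 to 5. Of the 5 IF16 libraries, 4 were above every AL library and replicate 2 lay inside the AL range. The log2 fold change was 0.15 (SE 0.0858, 95% interval -0.03 to 0.33, edgeR adjusted p = 0.561), the smallest p among uncopied members in that comparison. Without a stated strand setting, reads of mt-Nd6 and of the opposite strand cannot be told apart. mt-Nd1 and mt-Nd2, complex I membrane subunits encoded on the plus strand, had log2 fold changes of 0.11 and 0.08 in IF16 and 0.08 and 0.05 in EOD.

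For complex III, mt-Cytb had 6278, 5610, 6645, 6719 and 6395 CPM in AL replicates 1 to 5 and 6366, 7750, 7368, 6278 and 6371 CPM in EOD replicates 1 to 5. EOD replicates 2 and 3 were above all AL libraries and the other 3 were inside their range. The log2 fold change was 0.11 (SE 0.0760, 95% interval -0.05 to 0.27, edgeR adjusted p = 0.442), and in IF16 it was 0.04 (SE 0.0760). Of the uncopied members it varied least among libraries of a group, with a pooled SD of 0.111 on the log2 scale against a median of 0.196 over all genes.

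For complex IV, mt-Co1 had 14037, 12071, 13948, 13130 and 12722 CPM in AL replicates 1 to 5, and 13928, 17446, 16058, 15003 and 13445 CPM in EOD replicates 1 to 5. EOD replicates 2, 3 and 4 exceeded every AL library and replicates 1 and 5 did not. The log2 fold change of 0.20 (SE 0.0799, 95% interval 0.03 to 0.37, edgeR adjusted p = 0.321) was not called. IF16 libraries had 12909, 13108, 14536, 14790 and 15022 CPM, a log2 fold change of 0.09 (SE 0.0799), with replicates 3 to 5 above the AL range. EOD replicates 2 and 3, the highest for mt-Co1 and mt-Cytb, also had the highest mitochondrial share of all counts, 4.29% and 4.01%.

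Between the 2 fasting regimens there was no call among the members either: 0 of 12 in EOD against IF16, with 0% of all genes called, 0 members at an unadjusted p under 0.05 (3.62% of all genes) and 0 by DESeq2. Of the 12 members 7 had a positive log2 fold change. The smallest p among uncopied members belonged to mt-Nd5, at 0.18 (SE 0.174, edgeR adjusted p = 0.977). Among the copied members, mt-Nd4l had the largest log2 fold changes, 0.28 (SE 0.346) in IF16 and 0.69 (SE 0.342, edgeR adjusted p = 0.355) in EOD against AL, on 37 to 178 counts per library. mt-Nd3 followed at 0.21 (SE 0.248) and 0.30 (SE 0.248). AL replicate 1 was the highest AL library for both, at 5.15 CPM against 1.18 to 2.36 for mt-Nd4l and 12.6 CPM against 6.68 to 7.91 for mt-Nd3.

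**Figure D2:**
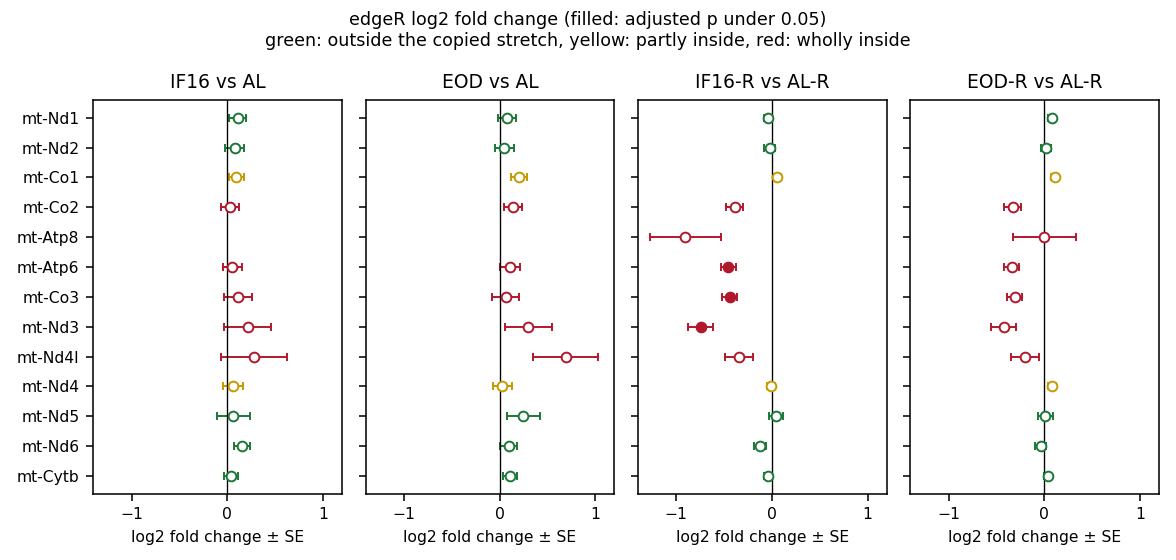
Log2 fold change with its standard error (edgeR) of each mitochondrial mRNA in the 4 comparisons with ad libitum controls, in genome order, and filled where the adjusted p is under 0.05. Points lie right of 0 in both regimen comparisons, farthest for mt-Nd4l in EOD at 0.69, while after refeeding the red, wholly copied mRNAs lie left of 0, except mt-Atp8 in EOD-R, and mt-Atp6, mt-Co3 and mt-Nd3 in IF16-R are filled.

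One uncopied member varied more than the rest among the libraries of the regimens. mt-Nd5, the longest mitochondrial mRNA at 1824 bases and the distal proton pump of complex I, had 2702, 2396, 2137, 1480 and 1506 CPM in AL replicates 1 to 5. IF16 libraries had 1613, 1822, 2736, 2276 and 2236 CPM and EOD libraries 2411, 2968, 2258, 2560 and 1934 CPM. The 3 lowest libraries, AL replicates 4 and 5 and IF16 replicate 1, were the 3 with a length gradient below -0.1. Its pooled within-group SD was 0.314 on the log2 scale, against 0.145 for mt-Nd1 and 0.136 for mt-Nd6.

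Over the 15 regimen libraries log2 CPM of mt-Nd5 followed the length gradient, which is computed without mitochondrial genes, with Pearson's r = 0.904 (permutation p = 3e-05, adjusted p = 0.00084 over 28 relations) and Spearman's rho = 0.918 (permutation p = 1e-05, the smallest that 100000 resamples can give, adjusted p = 0.00028). With the 2 libraries of most extreme gradient left out, r was 0.93, and after subtraction of group means 0.892. The 28 relations set 7 mRNAs against the gradient and the choroid plexus marker mean in each table. No other passed: the next were mt-Co1 with r = 0.549 and mt-Nd4 with r = -0.539 (adjusted p = 0.36 for each by permutation). After refeeding, where the gradient varied less, mt-Nd5 gave r = 0.379 (permutation p = 0.16, adjusted p = 0.64). With the gradient as a covariate the log2 fold change of mt-Nd5 in EOD against AL went from 0.25 (SE 0.174) to -0.02 (SE 0.0920), and in IF16 against AL from 0.06 to -0.06, so its direction depended on that term. The ratio of mt-Nd5 to mt-Nd1 per length ran from 0.149 in AL replicate 4 to 0.319 in EOD replicate 4 within these 15 libraries.

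**Figure D3:**
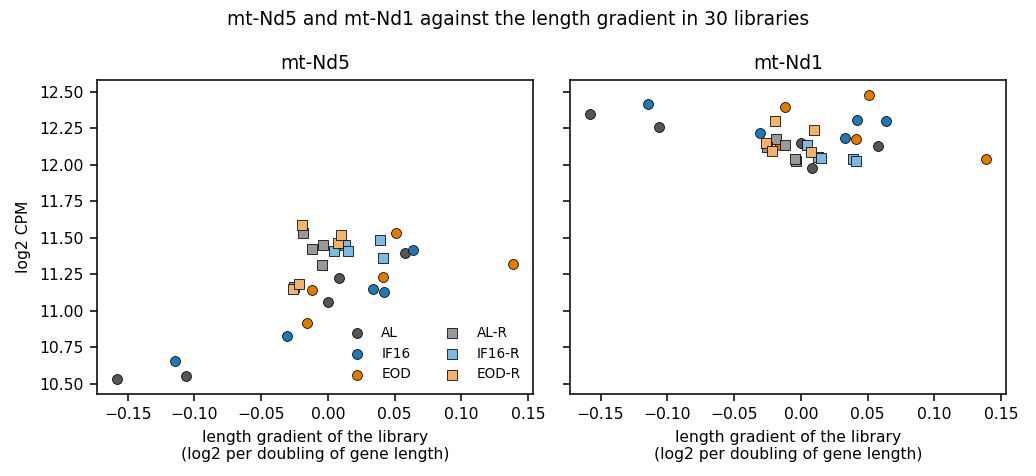
Log2 CPM of mt-Nd5 and mt-Nd1 against the length gradient of each library, circles for the end of the regimens and squares for after refeeding. The gradient is the slope on log2 gene length of log2 CPM relative to each nuclear gene's mean in its table. Its zero point therefore differs between circles and squares. mt-Nd5 rises along the gradient among the circles (r = 0.904), while mt-Nd1 has r = -0.40.

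After refeeding, counts assigned to 3 of the 13 mitochondrial mRNAs were lower in IF16-R than in AL-R cerebellum. All 3 lie wholly inside the copied span. Mean CPM of mt-Atp6, mt-Co3 and mt-Nd3 stood at 0.728, 0.737 and 0.596 of the AL-R means. The 7 mRNAs outside or partly inside the span had log2 fold changes between -0.13 and 0.05. Since the division of reads with the copies is not described, whether the mRNAs themselves differed was not tested. With edgeR's quasi-likelihood test 0.17% of all 16444 genes were called in this comparison and 0.103% were called lower. At an unadjusted p under 0.05 there were 7 members, all lower, against 9.58% of all genes in either direction. These were the 6 wholly copied mRNAs and mt-Nd6. DESeq2 called 4 members, the same 3 and mt-Co2.

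mt-Atp6 had 68.1, 66.6, 61.9, 70.6 and 72.7 CPM in AL-R replicates 1 to 5 and 63.7, 46.2, 46.0, 46.1 and 45.3 CPM in IF16-R replicates 1 to 5. IF16-R replicate 1 lay inside the AL-R range and the other 4 lay together below it. Group means were 68.0 ± 4.12 and 49.5 ± 7.96 CPM (SD, n = 5), a log2 fold change of -0.46 (SE 0.0786, edgeR adjusted p = 0.0312).

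mt-Co3 had 77.9, 79.0, 74.4, 77.7 and 86.7 CPM in AL-R and 69.5, 59.9, 52.5, 58.0 and 51.7 CPM in IF16-R. All 5 IF16-R libraries were below all 5 AL-R libraries, as they were for mt-Nd3, and 1.11% of all genes showed such a separation downwards. The log2 fold change of mt-Co3 was -0.44 (SE 0.0781, edgeR adjusted p = 0.0312). mt-Nd3, a small complex I subunit at the hinge between its arms, had 9.42, 8.73, 9.59, 9.37 and 8.22 CPM in AL-R and 7.94, 4.70, 4.39, 5.24 and 4.76 CPM in IF16-R, on 138 to 315 counts per library. Its log2 fold change was -0.74 (SE 0.130, edgeR adjusted p = 0.0312), and replicate 1 was again the highest IF16-R library.

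mt-Co2 had 125, 116, 114, 131 and 132 CPM in AL-R and 124, 87.4, 83.7, 89.1 and 87.2 CPM in IF16-R, so that replicate 1 lay inside the AL-R range and the other 4 lay below it. Its log2 fold change was -0.39 (SE 0.0880, edgeR adjusted p = 0.0947). mt-Nd4l had -0.34 (SE 0.145) and mt-Atp8, on 4 to 15 counts per library in these 2 groups, -0.91 (SE 0.369), neither of them called. Without IF16-R replicate 1, mt-Co2 was called as well, at -0.51 (edgeR adjusted p = 0.000122), and mt-Atp6, mt-Co3 and mt-Nd3 stood at -0.56, -0.51 and -0.92. Without any other single library of the pair none of the 13 was called, at edgeR adjusted p of 0.0514 to 0.109 for the 3 genes, while their log2 fold changes stayed between -0.40 and -0.78.

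Among uncopied members, mt-Nd6 had the smallest p: 737, 683, 749, 764 and 733 CPM in AL-R and 761, 689, 655, 619 and 634 CPM in IF16-R, with replicates 3 to 5 below the AL-R range. Its log2 fold change was -0.13 (SE 0.0605, edgeR adjusted p = 0.519). mt-Cytb had 6225, 5671, 5595, 5821 and 6153 CPM in AL-R and 5599, 5896, 5898, 5596 and 5701 CPM in IF16-R, all inside the AL-R range, with a log2 fold change of -0.04 (95% interval -0.12 to 0.04). mt-Co1 had 14333, 13193, 12762, 14229 and 14501 CPM in AL-R and 13861, 14713, 14718, 14261 and 13978 CPM in IF16-R, with a log2 fold change of 0.05 (95% interval -0.03 to 0.13).

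**Figure D4:**
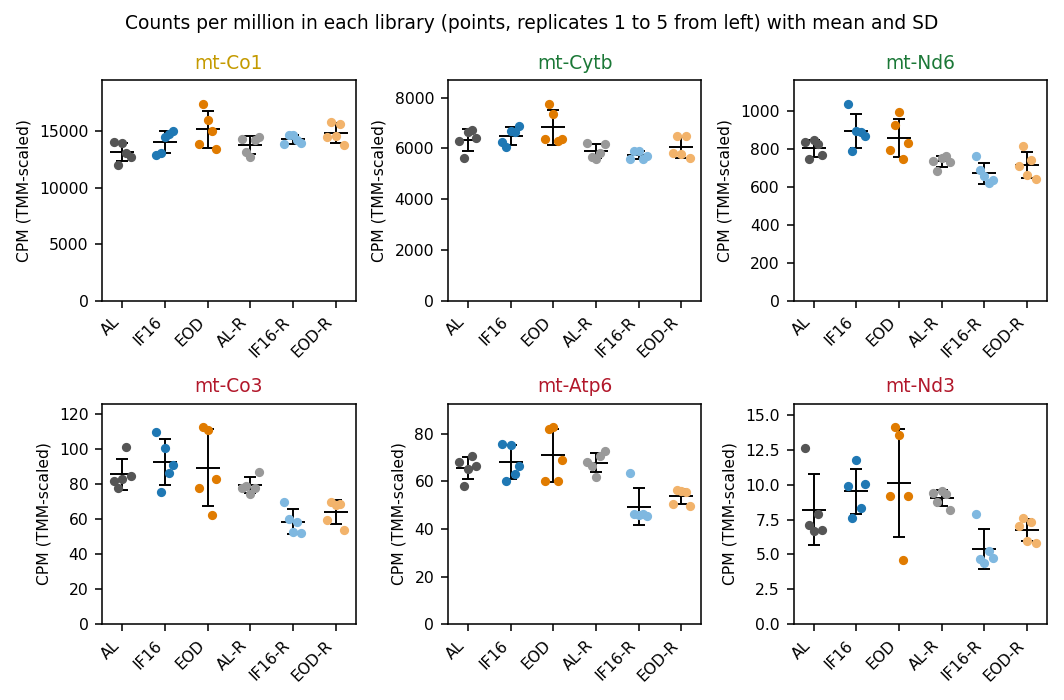
CPM in each library of 3 mRNAs mostly outside the copied span (upper row) and 3 wholly inside it (lower row), with group mean and SD. In the upper row the refed groups overlap. In the lower row IF16-R and EOD-R lie below AL-R, except that IF16-R replicate 1, the leftmost point and the highest of its group, is inside the AL-R range for mt-Atp6.

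Of the 7 chromosome 1 pseudogenes 3 were called lower in IF16-R against AL-R, where 0.103% of all genes were called lower. All 7 had negative log2 fold changes. Called were the mt-Co1 copy RP23-8J15.1 (-0.53, SE 0.0935, edgeR adjusted p = 0.0312), the mt-Atp6 copy RP23-8J15.3 (-0.48, SE 0.0888) and the mt-Co3 copy RP23-8J15.4 (-0.43, SE 0.0852). The mt-Co1 copy, which mirrors 31.8% of that gene, had 62.7 ± 10.4 CPM in IF16-R and 90.8 ± 8.60 CPM in AL-R. mt-Co1 itself, counted over its whole length, had a log2 fold change of 0.05 and was not called. The mt-Nd3 copy RP23-8J15.5, which holds most counts of its pair, had -0.12 (SE 0.0623, not called), with overlapping groups, and mt-Nd3 summed with it had -0.22 (edgeR adjusted p = 0.24). Counted together with their copies, mt-Atp6 and mt-Co3 were still called. mt-Co2, mt-Atp6, mt-Co3 and mt-Nd3 added to all 7 pseudogenes as 1 feature gave -0.43 (SE 0.0796, edgeR adjusted p = 0.0366).

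As a share of mitochondrial counts, the 6 wholly copied mRNAs made up 0.812% to 0.877% in AL-R and 0.82% in IF16-R replicate 1, against 0.556% to 0.607% in IF16-R replicates 2 to 5 and 0.607% to 0.70% in EOD-R. At the end of the regimens it was 0.712% to 0.939%, and the 3 groups overlapped. Per library total, the 7 pseudogenes held 0.0433% to 0.0488% in AL-R, 0.0441% in IF16-R replicate 1, 0.0306% to 0.0325% in the other IF16-R libraries and 0.0324% to 0.0411% in EOD-R. Genes annotated as other pseudogenes held 0.159% to 0.168% in AL-R and 0.168% in IF16-R replicate 1. They held 0.151% to 0.159% in the other IF16-R libraries and 0.155% to 0.166% in EOD-R. The groups overlapped, but AL-R and IF16-R replicates 2 to 5 only narrowly.

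**Figure D5:**
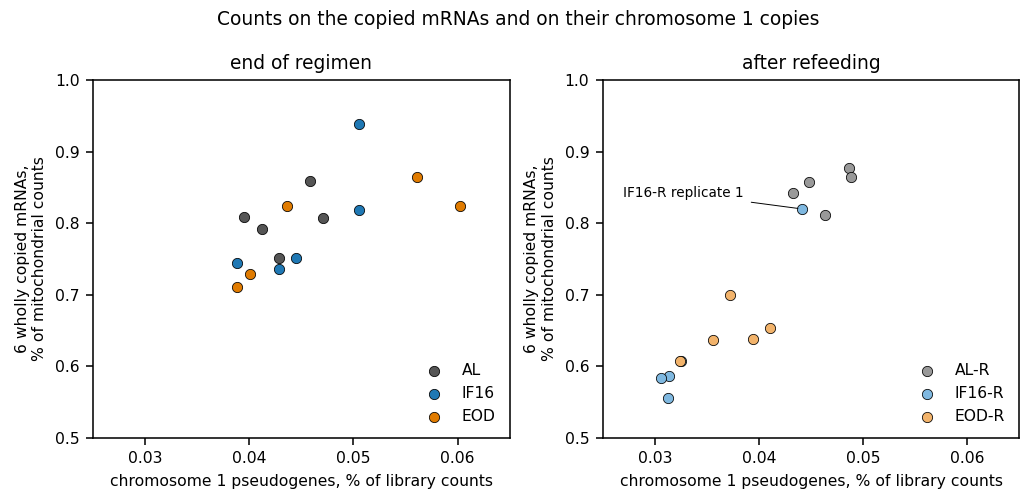
Share of mitochondrial counts on the 6 wholly copied mRNAs against the share of all counts on the 7 chromosome 1 pseudogenes, 1 point per library, with the regimens on the left and refeeding on the right. On the right AL-R and IF16-R replicate 1 lie at 0.812% and above, and the other refed libraries at 0.70% and below.

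The length gradient also differed between these groups: it was -0.0255 to -0.00332 in AL-R and 0.00438 to 0.0415 in IF16-R, without overlap, so the gradient and the regimen cannot be told apart here. With it as a covariate none of the 13 mRNAs was called. mt-Atp6, mt-Co3 and mt-Nd3 had log2 fold changes of -0.34 (SE 0.114), -0.32 (SE 0.112) and -0.69 (SE 0.197), with an edgeR adjusted p of 0.99998 for each. Their standard errors were larger than without it. The 6 wholly copied mRNAs were all negative in that fit, with a median of -0.42 against -0.45 without it. Their median length was 514.5 bases, against 2997 over all genes tested. Choroid plexus markers were low in IF16-R replicates 2, 3 and 4 (0.692 to 1.05 log2 CPM), at 2.16 in replicate 5 and at 3.74 in replicate 1. They ran from 1.19 to 4.85 in AL-R, with replicates 2, 4 and 5 at 1.19 to 1.46. In EOD-R they ran from 0.965 to 4.91. With the marker mean as a covariate the same 3 mRNAs were called.

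In EOD-R against AL-R no member passed the test. Of the 6 wholly copied mRNAs 5 had a negative log2 fold change and mt-Atp8 was at 0.00, while the partly copied mt-Co1 and mt-Nd4 had positive values of 0.11 and 0.08. mt-Co2, mt-Atp6, mt-Co3 and mt-Nd3 were below all AL-R libraries in all 5 EOD-R libraries, where 0.918% of all genes showed this. mt-Atp6 had 50.7, 56.3, 56.2, 55.7 and 49.7 CPM in EOD-R, a log2 fold change of -0.34 (SE 0.0785, edgeR adjusted p = 0.171). mt-Co3 had 59.6, 69.8, 68.1, 68.4 and 53.6 CPM, a log2 fold change of -0.31 (SE 0.0780, adjusted p = 0.207).

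With edgeR 0 of 13 members were called, against 0.0426% of all genes, with 5 members at an unadjusted p under 0.05 (8.5% of all genes), namely these 4 and mt-Co1. DESeq2 called 3 of them, mt-Co2, mt-Atp6 and mt-Co3. mt-Co2 had a log2 fold change of -0.33 (SE 0.0880) and mt-Nd3 of -0.43 (SE 0.128). The length gradient of EOD-R, -0.0262 to 0.00956, overlapped that of AL-R, and with it as a covariate mt-Co2, mt-Atp6, mt-Co3 and mt-Nd3 stood at -0.32, -0.33, -0.30 and -0.42. Since IF16-R and EOD-R share the AL-R libraries, their values are not independent. mt-Co1 had 14512, 15812, 14635, 15671 and 13760 CPM in EOD-R, all 5 above the lowest 2 AL-R libraries, with a log2 fold change of 0.11 (SE 0.0381, edgeR adjusted p = 0.419). Among uncopied members the smallest p was that of mt-Nd1, at 0.08 (SE 0.0390, adjusted p = 0.624).

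No member passed the test between EOD-R and IF16-R: edgeR called 0 of 13, against 0.0182% of all genes, with 3 at an unadjusted p under 0.05 (9.75% of all genes) and 0 by DESeq2. Of the 13, 12 had a positive log2 fold change, with a median of 0.09. mt-Nd1 had the smallest p, at 0.12 (SE 0.0390, edgeR adjusted p = 0.333). Without IF16-R replicate 1, mt-Nd3 was called higher in EOD-R.

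An interaction over all 30 libraries tested whether refeeding altered each regimen's difference from its own controls. For IF16, 0 of 13 members were called, against 0.0474% of all genes, although all 13 estimates were negative and 6 had an unadjusted p under 0.05 (7.21% of all genes). The wholly copied mRNAs had a median of -0.59, with mt-Atp6 at -0.51 (SE 0.133, edgeR adjusted p = 0.282), and mt-Nd6 had the smallest p among uncopied members at -0.28 (SE 0.109, adjusted p = 0.598). Without IF16-R replicate 1, mt-Atp6 was called. For EOD, 0 of 13 were called, against 0.0119% of all genes, with 12 negative estimates and 5 at an unadjusted p under 0.05 (10.3% of all genes). mt-Co2 had -0.47 (SE 0.135, edgeR adjusted p = 0.297), and mt-Nd6 had -0.14 (SE 0.109, adjusted p = 0.60). DESeq2 called 0 in both. The 2 times of collection also differ in age and in the table counted, which cannot be told apart from refeeding in levels.

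Nuclear genes of the same complexes are given as counts and medians. Of 82 listed subunits 80 were tested, and their log2 fold changes differed between fits with and without the length gradient as a covariate. The median length of these genes was 943.5 bases, against 2997 over all genes. Whether length or the regimen lay behind their values was not tested. In EOD against AL 73 of 80 were lower, with a median of -0.14, but with the gradient as a covariate 74 were higher, with a median of 0.08. In IF16 against AL 51 were lower, and with the covariate 72 were higher. In IF16-R against AL-R 75 were lower, with a median of -0.08, and with the covariate 44. Only Atp5k, a small subunit of the ATP synthase, was called in that comparison, with 42.9 ± 2.85 CPM in AL-R and 34.4 ± 2.57 CPM in IF16-R and an edgeR adjusted p of 0.0312 for a log2 fold change of -0.32 (SE 0.0571). None was called in the other comparisons. In IF16-R against AL-R, 35 of 80 were lower and 0 higher at an unadjusted edgeR p under 0.05 (9.58% of all genes). In EOD-R against IF16-R, 76 were higher and 4 lower, with 45 higher and 0 lower at that p (9.75%). In EOD against IF16, 76 were lower and 4 higher, and in EOD-R against AL-R, 59 were higher and 21 lower. The EOD interaction had 74 higher and 6 lower, the IF16 interaction 25 and 55. These counts are without the covariate. The members without a copy had median log2 fold changes of 0.09 in EOD against AL and 0.12 with the covariate, with 5 and 4 of the 5 higher, mt-Nd5 being the one that turned.

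Of 55 listed genes for mitochondrial DNA upkeep, transcription and RNA processing, 48 were found and tested, and edgeR called none in any of the 8 comparisons. An unadjusted p under 0.05 was reached by 1 of the 48 in IF16 against AL, 6 in EOD against AL, where 14.4% of all genes did, and 0 in EOD against IF16. After refeeding it was reached by 4 in IF16-R against AL-R (9.58% of all genes), 3 in EOD-R against AL-R and 7 in EOD-R against IF16-R (9.75% of all genes), and by 4 in each interaction. The smallest p at the end of the IF16 regimen was that of Trit1, which modifies tRNAs in mitochondria and cytosol, at 0.23 (SE 0.0718, edgeR adjusted p = 0.347). In EOD against AL it was Fastkd5, which is needed to release mt-Co1 and other mRNAs from the precursor, at 0.39 (SE 0.152, edgeR adjusted p = 0.317). In IF16-R against AL-R it was Fastkd1, another FASTK family RNA-binding protein of mitochondria, at -0.20 (SE 0.0557, edgeR adjusted p = 0.23). It was Mterf1b in EOD against IF16 (-0.35, edgeR adjusted p = 0.977), Fastk in EOD-R against AL-R (-0.18, adjusted p = 0.387) and Polg in EOD-R against IF16-R (-0.12, adjusted p = 0.354). For the interactions it was Trit1 with IF16 (-0.33, edgeR adjusted p = 0.324) and Fastkd1 with EOD (-0.33, adjusted p = 0.349).

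The share of all counts on the 13 mRNAs was 3.38% ± 0.195 (SD, n = 5) in AL libraries, 3.59% ± 0.215 in IF16 libraries and 3.69% ± 0.437 in EOD libraries. After refeeding AL-R stood at 3.37% ± 0.168, IF16-R at 3.34% ± 0.0800 and EOD-R at 3.52% ± 0.242. The ranges overlapped in every pair of groups compared, from 3.10% in AL replicate 2 to 4.29% in EOD replicate 2, and no test was made.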

How the data were processed

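Whole-number read counts per gene were deposited by the authors in 2 tables of 15 libraries, with FPKM values per library alongside. The submitters' processing notes name STAR 2.5, HTSeq 0.6.1, DESeq2 2 and the build mm10, with no role given, and strand and the treatment of reads matching several places are not given in the sources used here. The deposited FPKM equal count over gene length over library total (largest relative difference 4.97e-12), so they carry no further normalization. All columns were mapped to samples by their labels. Libraries of 1 group differed by more than sampling noise in all 60 pairs (chi-square per degree of freedom 4.24 to 135), so no library was treated as deposited in duplicate. This does not tell separate mice from repeat preparations.

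Counts were tested with edgeR 4.0.16 in R 4.3.3 (TMM, filterByExpr by group, quasi-likelihood test, Benjamini-Hochberg over all genes tested), in 1 fit per table and a fit of all 30 libraries for the interactions. CPM are TMM-scaled and group values are mean ± SD. Counts were simulated from mean levels over all 15 libraries of a table, with known changes set in 1 group. For IF16-R against AL-R (16310 genes), 67.35% of 98 genes changed by 0.5 on the log2 scale were called. Of 100 genes changed by 1, 83% were called, and there were 16 false calls among unchanged genes. For IF16 against AL (16440 genes) it was 58% and 80%, of 100 genes each, with 11 false calls. In both simulations the false calls were a larger share of all calls than the adjusted p threshold of 0.05. Changes smaller than 0.5 were not simulated. Common biological variation was 14.3% in the regimen table and 8.05% in the refeeding table. DESeq2 1.42.0 and the alternatives of the closing section were run on the same counts. Permutation tests used 100000 resamples.

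The members and lists were chosen with earlier results of these data known. The rule for named genes gave full statistics for members called and for the uncopied member of smallest p in each comparison, per-library values for called members, mt-Co1, mt-Cytb and mt-Nd6, and, for the machinery list, genes called and the smallest p. The values of mt-Co2 and mt-Nd5 by library, and the length gradient relation, were added after their values were seen. Beside the marker lists in the text, mean log2 CPM over the 30 libraries was 8.13 to 8.51 for astrocytes and Bergmann glia, 8.09 to 8.63 for oligodendrocytes, 3.60 to 4.18 for microglia, 4.96 to 5.36 for endothelium and 0.17 to 3.54 for red blood cells. The chromatin immunoprecipitation samples and their inputs were not analysed here. No sequence of the mitochondrial genome or of chromosome 1 was used.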

Additional observations from a re-analysis of the deposited data

Results flagged for a closer look

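In 5 of 84 groups of 5 libraries examined, 1 library stood apart from the other 4 by Dixon's ratio (gap to the nearest library over the whole range, above its 95% critical value), and chance gives about 1 in 20. IF16-R replicate 1 was the high library in 3 of them: mt-Co2 at 124 CPM against 83.7 to 89.1 in the other 4 (ratio 0.868), mt-Atp6 at 63.7 CPM against 45.3 to 46.2 (ratio 0.951) and mt-Nd3 at 7.94 CPM against 4.39 to 5.24 (ratio 0.762). All 3 lie wholly inside the copied span. mt-Nd3 was also high in AL replicate 1, at 12.6 CPM against 6.68 to 7.91 (ratio 0.793). mt-Nd1 in IF16-R replicate 2 stood at 4497 CPM, with the others at 4168 to 4255 CPM (ratio 0.735).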

How the results depend on the processing

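The 3 calls in IF16-R against AL-R (mt-Atp6, mt-Co3, mt-Nd3) were kept under median-ratio size factors, scaling from nuclear genes, either filter on low counts, a fit of the compared groups alone and the choroid plexus covariate, and their direction under every alternative run. The count went to 0 with all 30 libraries in one fit and to 0 with a length gradient term, to 1 of 10 with mt-Co2, mt-Atp6, mt-Co3, mt-Nd3 and the pseudogenes as 1 feature, and ran from 0 to 4 when each library was left out. The cause was not tested. Summing each mRNA with its copy, an alternative added after seeing the data, kept mt-Atp6 and mt-Co3. In EOD-R against AL-R, DESeq2 called 3 and a fit of those groups alone 1. Leaving out single libraries gave 0 to 1 calls in EOD-R against IF16-R and in the IF16 interaction. The IF16-R share of counts was 3.46% over nuclear counts, against 3.34% of all. Of 98 member values not called, 28 changed sign under at least 1 alternative and 6 were called under at least 1.

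With the replicate block, 4 members were called in IF16-R against AL-R, mt-Co2 being the one added (edgeR adjusted p = 0.0237), and 0 in each other comparison. Not every same-numbered pair of deviations correlated above 0.1, so the numbers were not taken as pairing the samples. That rule cannot show that same-numbered libraries share nothing, and after refeeding they correlated above 0.1 more often than others. At the end of the regimens r was -0.534 to 0.322 (3 of 15 pairs above 0.1, against 24 of 60 with different numbers), and the best partner had the same number in 2 of 30 choices. After refeeding r was -0.0545 to 0.427 (8 of 15 above 0.1, against 12 of 60; median 0.104 against -0.0415), and the best partner had the same number in 11 of 30 choices. The alternative without rRNA genes was not run, since no rRNA gene was among the members. Depth limits mt-Atp8, at 1 to 15 counts per library.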
